A study of Mus musculus with 16 samples.

Results

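Heat shock and chaperone genes were examined in the H3K27ac and H3K4me3 peak lists of mouse late 2-cell embryos. The 10 genes were chosen by name from the 21887 protein-coding genes on chromosomes 1 to 19, X and Y of a RefSeq gene table, and all 10 were matched by symbol. They were Hspa1a, Hspa1b, Hspa8, Hspa5, Hsp90aa1, Hsp90ab1, Hspd1, Hspe1, Hsf1 and Hsf2.

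The embryos had been injected as zygotes, with water in the control group and with Hdac1 mutant mRNA in the mutant group, and were collected 36 h after fertilization. Hdac1 takes acetyl groups off histones and other proteins. Which mutation the mRNA carried, the mouse strain and the number of embryos in a library are not given in the sources used here. Endogenous Hdac1 was not deleted in either group as far as the labels say. Native chromatin was cut with micrococcal nuclease, precipitated with an antibody to either mark, and sequenced. The 16 libraries formed 8 groups of 2, an antibody and an input group for each mark and condition. The data were 1 deposited peak list for each of the 4 antibody groups, with positions and no heights. With 1 list a group there is no replicate error, no test was possible, and every difference given here is a difference between 2 lists.

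The control and mutant H3K27ac lists held 77349 and 122487 peaks on the chromosomes used, and the H3K4me3 lists held 86798 and 85780. All 10 marker genes of the 2-cell stage (such as the Zscan4 family and Zfp352) were marked by H3K27ac in both conditions, and 8 and 10 of them by H3K4me3, control and mutant. Of 7 cumulus cell markers, 3 in the control and 5 in the mutant list had H3K27ac, and 5 and 6 had H3K4me3. Over all genes the shares marked were 54.8% and 58.0% for H3K27ac and 74.7% and 72.9% for H3K4me3, control and mutant. The part of other cells in the results was not tested. How deeply the libraries were sequenced is unknown.

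Chaperones bind unfolded or aggregated proteins and help them fold, and most of them use ATP. Hsp70 proteins hold short exposed stretches of a client, Hsp90 proteins act later on nearly folded clients such as kinases and receptors, and the mitochondrial chaperonin encloses a client in a chamber. Heat and other stress activate Hsf1, which binds DNA as a trimer at repeats of a short unit, the heat shock element, and switches on the inducible chaperone genes. In the mouse embryo Hspa1a and Hspa1b are known as some of the earliest genes transcribed from the zygotic genome, without applied heat. H3K27ac marks promoters and enhancers in use, and H3K4me3 sits mainly at promoters.

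The promoters below show where these elements lie, because peaks of the 4 lists covered or missed them. They came from the RefSeq promoter table of GRCm38.p6 and run 5′ to 3′ on the gene's strand from 250 bases before to 50 bases after the start site. The table held 7 promoters of 6 of the 10 genes (Hspa1a, Hspa1b, Hspa5, Hspd1, Hspe1 and Hsf2). Capitals mark matches to a heat shock element, a CCAAT box or an endoplasmic reticulum stress element on either strand. The near-identical inducible pair at chr17:34972107-34972406 and chr17:34959189-34959488, both on the minus strand, reads
Hspa1a: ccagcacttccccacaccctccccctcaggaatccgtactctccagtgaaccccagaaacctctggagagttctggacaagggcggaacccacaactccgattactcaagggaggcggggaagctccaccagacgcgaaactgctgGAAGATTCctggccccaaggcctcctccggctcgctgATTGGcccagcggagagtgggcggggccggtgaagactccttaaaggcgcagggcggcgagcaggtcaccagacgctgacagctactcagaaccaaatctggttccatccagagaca
Hspa1b: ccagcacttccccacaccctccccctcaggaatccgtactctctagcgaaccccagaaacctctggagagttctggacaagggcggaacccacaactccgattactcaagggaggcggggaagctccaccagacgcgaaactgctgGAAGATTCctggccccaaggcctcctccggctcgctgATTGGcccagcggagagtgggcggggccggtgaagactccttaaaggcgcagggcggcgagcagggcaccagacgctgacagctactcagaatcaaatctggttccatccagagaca

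Hspa1a and Hspa1b shared 296 of these 300 bases (98.7%), and the longest run without a difference was 201 bases. Each held 1 match to the heat shock element of 2 units head to head, searched as GAANNTTC, starting 104 bases before the start site. That match was at 34972253 to 34972260 in Hspa1a and at 34959335 to 34959342 in Hspa1b. Of all 32851 promoters in the table, 7.86% held such a match, and 8.52% held the tail-to-tail form TTCNNGAA. Each of the pair also held 1 CCAAT box, as 37.4% of all promoters did. Reads from the shared stretches can be placed at either copy, so a peak called at one of them may hold reads of the other. How reads that fit both copies were treated is unknown, so a stretch without a peak may also lack placed reads. Neither was tested.

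The promoter of Hspe1 at chr1:55087898-55088197 on the plus strand lies inside Hspd1, which overlaps the start of Hspe1 and is transcribed in the opposite direction. It is shown for its run of heat shock units:
Hspe1: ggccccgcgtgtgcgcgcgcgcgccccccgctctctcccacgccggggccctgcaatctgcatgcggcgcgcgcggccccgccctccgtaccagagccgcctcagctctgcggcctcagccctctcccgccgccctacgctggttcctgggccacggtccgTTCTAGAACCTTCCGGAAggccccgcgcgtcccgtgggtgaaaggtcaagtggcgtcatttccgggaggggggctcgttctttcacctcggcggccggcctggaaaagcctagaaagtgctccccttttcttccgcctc

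The capitals are 4 alternating units over 18 bases at 55088059 to 55088076. A run of 3 or more units, searched as 3 alternating GAA and TTC trimers with 2 bases between neighbours on either strand, was held by 0.603% of all promoters. The 3-unit form contains the 2-unit forms, so these matches overlap. The start sites of Hspd1 were 95 and 216 bases from that of Hspe1. The second promoter of Hspd1 overlapped this sequence by 285 bases and held the same run on the other strand.

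The promoters of Hspa5 at chr2:34771840-34772139 and Hsf2 at chr10:57486135-57486434, both on the plus strand, are shown because all 4 lists had a peak over the whole of the first and only the control H3K4me3 list had one over the second:
Hspa5: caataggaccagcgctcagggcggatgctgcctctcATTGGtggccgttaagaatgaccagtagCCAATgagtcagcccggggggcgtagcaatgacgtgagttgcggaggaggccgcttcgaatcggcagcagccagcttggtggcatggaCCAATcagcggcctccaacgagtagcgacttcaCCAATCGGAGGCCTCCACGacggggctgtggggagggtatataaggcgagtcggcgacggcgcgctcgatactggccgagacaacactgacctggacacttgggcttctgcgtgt
Hsf2: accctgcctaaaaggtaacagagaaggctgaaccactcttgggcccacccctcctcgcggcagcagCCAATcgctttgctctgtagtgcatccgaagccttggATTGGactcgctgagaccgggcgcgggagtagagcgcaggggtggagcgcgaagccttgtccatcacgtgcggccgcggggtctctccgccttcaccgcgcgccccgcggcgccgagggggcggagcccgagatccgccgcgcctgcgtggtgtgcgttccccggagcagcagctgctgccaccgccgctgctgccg

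In Hspa5 the capitals are 4 CCAAT boxes, of which the one nearest to the start site is part of an endoplasmic reticulum stress element at 34772025 to 34772043. That element was searched as a CCAAT box, 9 further bases and the letters CCACG, a search added after the sequence had been seen, and 0.119% of all promoters held it. In Hsf2 the capitals are 2 CCAAT boxes. No promoter of the 6 genes held TATAAA, which 13.6% of all promoters held. The G+C content of the 7 promoters was between 61.0% and 73.3%, against a median of 52.7% and an upper quartile of 61.7% over all promoters. The ratio of observed to expected CpG was 0.542 in Hspa1a and 0.577 in Hspa1b, and between 0.901 and 0.994 in the others. Over all promoters the median was 0.384 and the upper quartile 0.75.

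A gene was counted as marked when a peak overlapped the window of 2 kb on each side of either gene end by at least 1 base. H3K27ac marked 9 of the 10 genes in the control and 7 in the mutant list, where 54.8% and 58.0% of all protein-coding genes were marked. H3K4me3 marked 9 of 10 genes in both lists, against 74.7% and 72.9% of all genes. The gene without H3K27ac in the control was Hsf2. In the mutant these were Hspa8, Hspe1 and Hsf1. Hsf2 was the gene without H3K4me3 at its gene ends in either list.

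**Figure D1:**
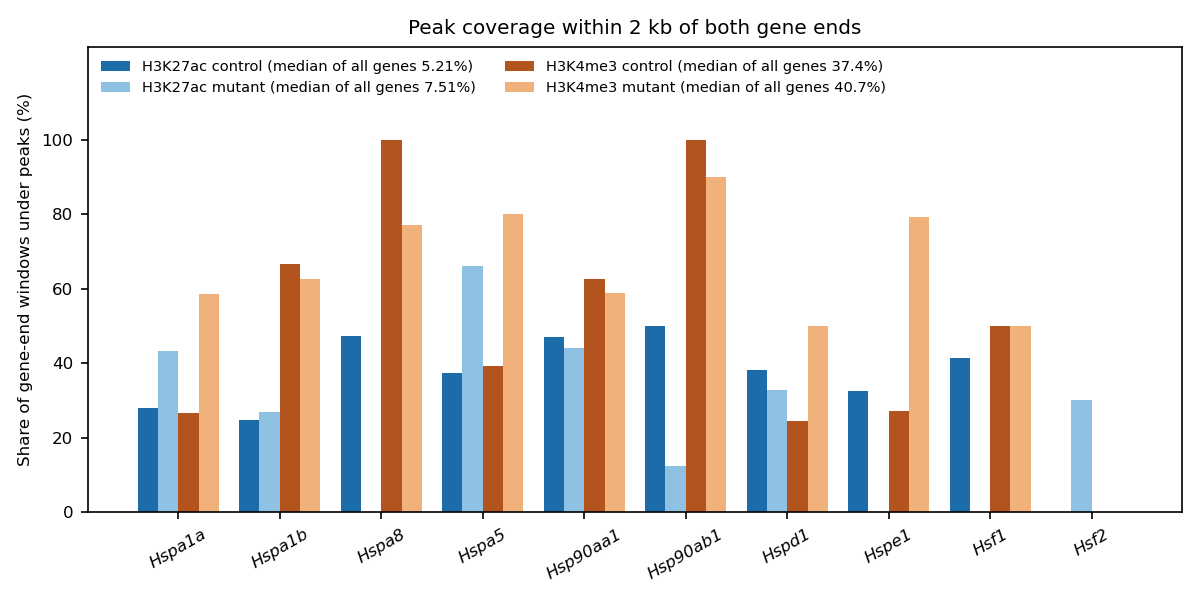
Percent of the gene-end windows under peaks (vertical axis, from 0) for each of the 10 genes, with 4 bars a gene, dark blue and light blue for H3K27ac and brown and orange for H3K4me3, in the control and mutant list each; the key gives the median over all protein-coding genes, and bars have no error because each group has 1 list. H3K27ac coverage was at least 2-fold lower in the mutant at Hspa8, Hsp90ab1, Hspe1 and Hsf1, and H3K4me3 coverage at least 2-fold higher at Hspa1a, Hspa5, Hspd1 and Hspe1.

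The median H3K27ac coverage of a gene's window was 37.7% over the 10 genes in the control and 28.5% in the mutant, against 5.21% and 7.51% over all genes. For H3K4me3 the medians were 44.7% and 60.8%, against 37.4% and 40.7%. In the 72716 bases that the windows cover without double counting, H3K27ac peaks covered 24582 bases in the control and 19648 in the mutant, a ratio of 0.799. H3K4me3 peaks covered 36403 and 42419 bases, a ratio of 1.17. The same ratios over all protein-coding genes were 0.86 and 1.03. Summed coverage of the 10 genes was thus lower for H3K27ac and higher for H3K4me3 in the mutant list. Gene by gene, H3K27ac was lower at 6 and higher at 4. H3K4me3 was lower at 4, higher at 4 and equal at 2. Over all genes the summed H3K27ac bases were lower in the mutant list as well, while the median per gene was higher. The H3K4me3 ratio was 0.976 with windows of 5 kb. The H3K27ac ratio was 1.15 at the start sites alone, which only 6 of the genes have. The genes without one, Hspa8, Hsp90aa1, Hsp90ab1 and Hsf1, all had fewer H3K27ac bases in the mutant. The set of genes and the window thus changed together.

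H3K27ac coverage was at least 2-fold lower in the mutant list at 4 of 10 genes (Hspa8, Hsp90ab1, Hspe1 and Hsf1), where 32.2% of all genes with the mark in either list were that much lower. It was at least 2-fold higher at 1 of 10, Hsf2, against 31.2%. A gene with no covered base in 1 of the lists counts as past the fold. Among the 10 genes, 3 had H3K27ac only in the control list and 1 only in the mutant list, against 12.5% and 15.6% of all genes. For H3K4me3, 4 of the 9 genes with the mark were at least 2-fold higher in the mutant, against 13.2% of all genes, and 0 of 9 were that much lower, against 13.3%. None of the 10 had H3K4me3 at a gene end in 1 condition only, where 6.68% of all genes had it only in the control and 4.85% only in the mutant list. The 4 genes with higher H3K4me3 include Hspd1 and Hspe1, whose windows share 1 peak. The calls depend on the window: with 5 kb on each side no gene had H3K27ac in the control only, and with 1 kb or 5 kb 2 of the genes had H3K4me3 higher past the fold. With 5 kb 1 gene, Hsf2, had H3K4me3 lower past it. With common limits or merged peaks 3 genes had H3K4me3 higher past the fold. H3K27ac was higher past it at 2 genes with 1 kb, merged peaks or common limits, and at 3 with a fold of 1.5.

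**Figure D2:**
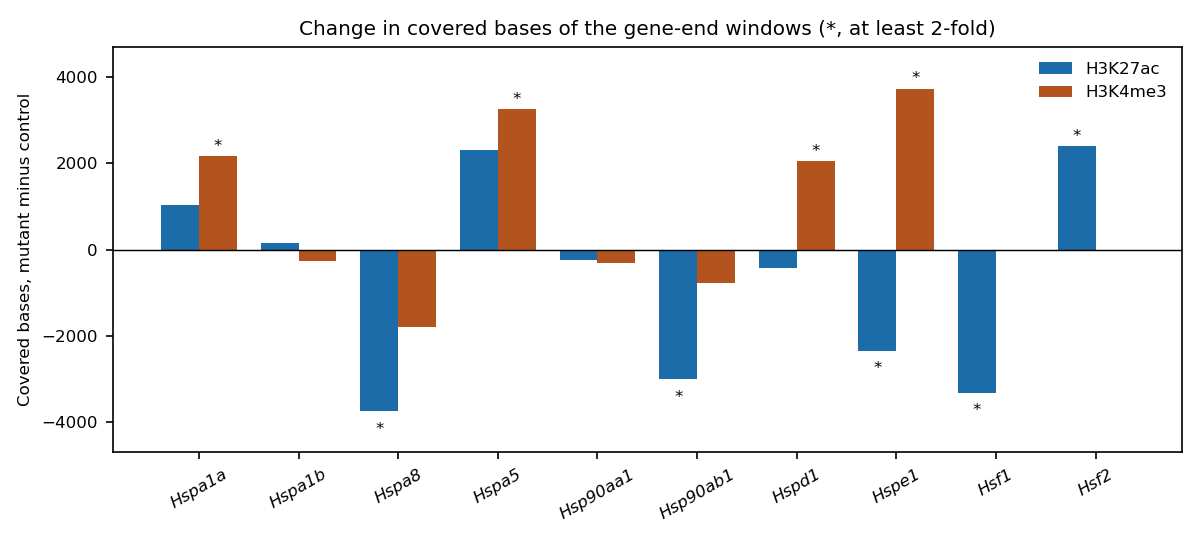
Covered bases of the gene-end windows in the mutant minus the control list (vertical axis, in bases, with a line at 0) for each gene, H3K27ac in blue and H3K4me3 in brown, with a star where the 2 lists differ by at least 2-fold. H3K27ac differences run from -3754 at Hspa8 to 2408 at Hsf2, and H3K4me3 differences from -1799 at Hspa8 to 3735 at Hspe1.

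The heat shock factors differed from each other in both marks. Hsf1, the main activator of the heat shock response (chromosome 15, 76477362 to 76501155), had H3K27ac over 3322 bases (41.5% of its window) in the control and over none in the mutant. The control peak was 10647 bp wide, lay at 76468037 to 76478683 and also covered part of Bop1, a gene of ribosome assembly. The mutant list had H3K27ac further into the gene, in peaks of 628 and 1360 bp, and the covered share of the gene body was 5.56% in the control and 8.36% in the mutant. H3K4me3 covered 4001 bases, 50% of the window, in both lists. These were all the bases at the end with the lower coordinate, so that end could not show a wider mark. With windows of 5 kb the mutant list covered 3699 bases more. In the gene body H3K4me3 covered 34.5% in 4 peaks in the control and 64.1% in 3 peaks in the mutant. Hsf1 therefore lacked H3K27ac within 2 kb of its ends in the mutant list, while H3K4me3 covered as many bases there in both.

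Hsf2, a related factor that can pair with Hsf1 and acts in germ cells and development (chromosome 10, 57483766 to 57513143), had the opposite difference in H3K27ac at its gene ends. No H3K27ac peak lay at its ends in the control, and 4 peaks covered 2408 bases (30.1%) in the mutant. Of these bases, 151 were at the 5′ end and 2257 at the 3′ end, and 1 of the 3′ peaks reached the neighbour Serinc1. The covered share of the gene body was 12.1% in the control and 13.9% in the mutant, and within 2 kb of the start site in the promoter table neither list had H3K27ac. That start site, 57486385, lies inside the gene as the gene table gives it, beyond the window. A control H3K4me3 peak of 3166 bp at 57485837 to 57489002 covered this start site and the whole printed promoter. In the mutant list the nearest H3K4me3 peak was 11837 bp from the start site. H3K4me3 covered 16.0% of the Hsf2 body in the control and none in the mutant. Over all 21263 start sites of protein-coding genes, 8.33% had an H3K4me3 peak within 2 kb only in the control list and 4.8% only in the mutant list.

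Hspa1a and Hspa1b, the stress-inducible Hsp70 genes, lie 10120 bp apart on chromosome 17, and Hspa1l, a testis Hsp70 gene, lies 546 bp beyond Hspa1a. For Hspa1a (34969359 to 34972156) H3K27ac covered 1913 bases (28.1%) in the control and 2951 (43.4%) in the mutant. The single control peak, 5000 bp wide, stopped 88 bp short of the 3′ end, and its distance to the start site was 2885 bp. The mutant list had 3 peaks, of 199, 610 and 3149 bp, and the widest, at 34972015 to 34975163, covered the start site, the printed promoter and part of Hspa1l. The Hspa1a body had no H3K27ac base in the control and 752 (26.9%) in the mutant. Within 2 kb of Hspa1a H3K27ac thus lay beyond the 3′ end in the control and over the start site in the mutant list. The 3′ and body peaks of the mutant, 199 and 610 bp wide, were not among the wider 50% of its list, nor in lists of equal size, and the difference was then 229 bases against 1038.

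H3K4me3 at Hspa1a covered 1810 bases (26.6%) in the control and 3989 (58.7%) in the mutant, 2.2 times as many. With windows of 5 kb the mutant list covered only 84 bases more than the control. With common limits or with peaks less than 1 kb apart merged, the difference was 1752 bases against 2179, and Hspa1a was no longer past the 2-fold difference. The control peak, at 34971920 to 34973729, covered the start site and the GAANNTTC match. The mutant list had a peak of 2139 bp at the 3′ end and one of 2491 bp that began 151 bp upstream of the start site and covered 100 of the 300 printed bases. The GAANNTTC match of Hspa1a was thus inside an H3K4me3 peak in the control only and inside an H3K27ac peak in the mutant only. Only exact units were searched, and the mutant H3K4me3 peak covered promoter bases further upstream. The body had 237 H3K4me3 bases (8.47%) in the control and 823 (29.4%) in the mutant.

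At Hspa1b (34956429 to 34959238) the H3K27ac extent in the 2-kb windows was similar in both lists, with 1692 bases (24.8%) in the control and 1835 (26.9%) in the mutant. Their places were not. The difference of 143 bases was 1598 with windows of 5 kb and 1835 around the start site alone. The control peak of 5235 bp lay 309 bp beyond the 3′ end, and the mutant peak of 7238 bp began 166 bp upstream of the start site. No H3K27ac peak was called in the gene body in either list, and how reads that fit both copies were treated is unknown. H3K4me3 covered 4541 bases (66.7%) in the control and 4278 (62.8%) in the mutant, and its widest peaks of 18409 and 17747 bp came from beyond the 3′ end. The start site and the GAANNTTC match were inside an H3K4me3 peak in both lists, of 1265 bp in the control and 2413 bp in the mutant. Within 2 kb of both genes H3K27ac was thus on the 3′ side alone in the control, and upstream of or over the start site in the mutant list, apart from the narrow peaks of Hspa1a named above.

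**Figure D3:**
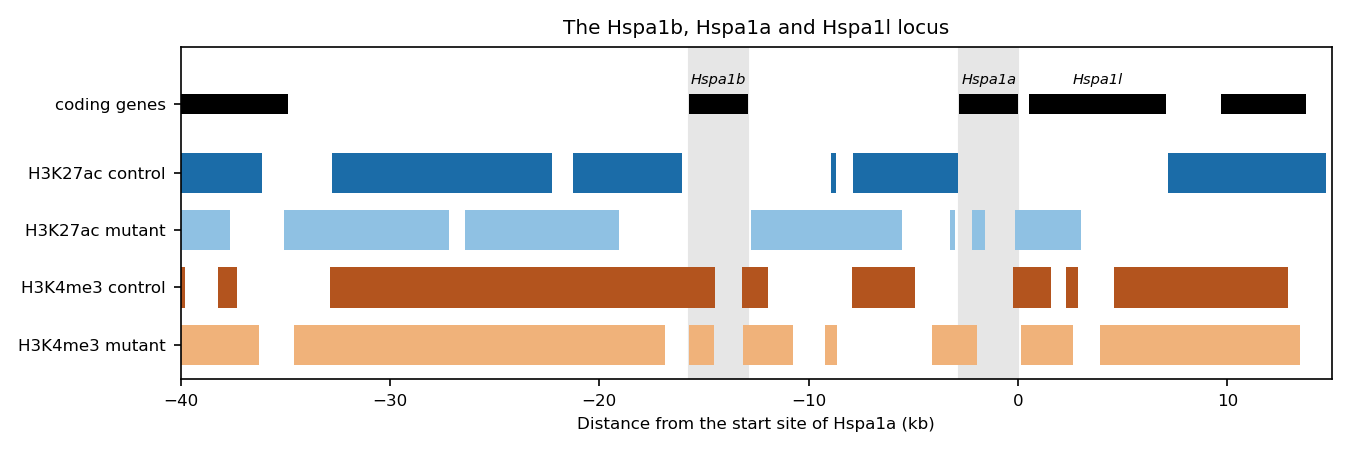
Peaks of the 4 lists (coloured bars, 1 row a list) and protein-coding genes (black bars) around the inducible Hsp70 pair, as distance in kb from the start site of Hspa1a; grey bands mark the bodies of Hspa1b and Hspa1a, whose start sites are at their right ends. Next to each gene the control H3K27ac peak ends just left of the 3′ end, while mutant H3K27ac peaks lie just right of Hspa1b and over the start site of Hspa1a.

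Hspa8 encodes Hsc70, the constitutive Hsp70 of the cytosol (chromosome 9, 40801276 to 40805202). Its H3K27ac in the control was part of a peak of 31067 bp that also covered part of Clmp and took in 3754 bases (47.4%) of the window and 44.7% of the gene body. Of all genes marked in that list, 6.81% had a peak as wide. The mutant list had no H3K27ac at Hspa8, and its nearest peaks, of 4334 and 3501 bp, were 4982 and 5948 bp away on either side. H3K4me3 covered the whole window, 7927 bases, in the control and 6128 (77.3%) in the mutant, and the whole body in both. These H3K4me3 peaks were 26853 and 24263 bp wide, and 3.24% and 4.68% of marked genes had a peak as wide. Hspa8 thus had wide H3K4me3 in both lists and H3K27ac in the control list alone.

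The cytosolic Hsp90 genes also differed from each other. Hsp90ab1, the constitutive form (chromosome 17, 45567778 to 45573261), had 4001 bases (50%) under H3K27ac in the control and 993 (12.4%) in the mutant, 4.03 times fewer. The control peak of 16930 bp covered 54.8% of the gene body and reached Slc29a1, a nucleoside transporter gene. The mutant peak of 2373 bp stood 1008 bp outside the gene, whose body held none. H3K4me3 covered the whole window of 8002 bases in the control and 7218 (90.2%) in the mutant, and the whole body in both lists. Its control peak was 18958 bp wide and reached Nfkbie and Slc35b2, and the mutant list had peaks of 5664 and 8848 bp in the window. As wide a peak was found at 8.37% of marked genes for the control peak and at 39.0% for the wider mutant peak. The gaps between the mutant peaks were short: with peaks less than 1 kb apart merged, H3K4me3 covered as many window bases in the mutant as in the control, a difference of 0 against -784. The mutant list thus had less H3K27ac at Hsp90ab1, while H3K4me3 covered the whole gene in both.

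Hsp90aa1, the stress-inducible form (chromosome 12, 110691036 to 110696395), had nearly the same H3K27ac extent in both lists, 3775 bases (47.2%) and 3536 (44.2%), at different ends. In the control all 3775 bases were at the end with the higher coordinate, under a peak of 6519 bp. In the mutant 2113 bases lay at the lower end, under a peak of 23243 bp that covered 1700001K19Rik as well, and 1423 at the higher end. Only 0.921% of marked genes had a mutant H3K27ac peak as wide. In the gene body H3K27ac covered 33.1% in the control and 2.11% in the mutant. H3K4me3 covered 5015 bases (62.7%) in the control and 4703 (58.8%) in the mutant, and 81.6% and 82.5% of the body, although the peak was 16640 bp wide in the control and 6061 bp in the mutant. Summed window coverage of Hsp90aa1 therefore hid a difference in the gene body.

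Hspa5 encodes BiP, the Hsp70 of the endoplasmic reticulum and a sensor of unfolded proteins there (chromosome 2, 34772090 to 34776529). H3K27ac covered 2983 bases (37.3%) in 2 peaks in the control and 5299 (66.2%) in 4 peaks in the mutant. H3K4me3 covered 3152 bases (39.4%) in the control and 6412 (80.1%) in the mutant, 2.03 times as many. Its H3K4me3 peak ran from 34770939 to 34774470 in the control and from 34769769 to 34776939 in the mutant. The covered share of the gene body was 30.7% and 56.9% for H3K27ac and 53.6% and 100% for H3K4me3, control and mutant. The start site, all 300 printed bases and so the endoplasmic reticulum stress element were inside peaks of all 4 lists. Among the 6 genes with a promoter in the table, Hspa5 was the one with this pattern. At the start end itself H3K27ac covered fewer bases in the mutant, 2008 against 2983 in the control. The greater H3K27ac total of the mutant came from the 3′ end, with 0 bases in the control and 3291 in the mutant, in peaks that also overlap the neighbour Rabepk.

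Hspd1 and Hspe1 encode Hsp60 and Hsp10, the chamber and the lid of the mitochondrial chaperonin, and share a promoter on chromosome 1, so their values are not independent. At Hspd1 (55077833 to 55088243) H3K27ac covered 3047 bases (38.1%) in the control and 2626 (32.8%) in the mutant. In the control 2251 of these were at the start end and 796 at the far end. In the mutant list none were at the start end and all 2626 were at the far end. At Hspe1 (55088148 to 55091317) H3K27ac covered 2346 bases (32.7%) in the control and none in the mutant, and 42.3% of the body in the control. The nearest mutant H3K27ac peak was 4449 bp from the start site of Hspe1. Within 2 kb of the start sites H3K27ac was thus found in the control and not in the mutant list, although no control H3K27ac peak covered a start site of either gene.

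H3K4me3 at this promoter was wider in the mutant list. Its peak was 1955 bp in the control (55086782 to 55088736) and 6877 bp in the mutant (55084961 to 55091837). Covered bases were 1955 (24.4%) and 4001 (50%) at Hspd1, a ratio of 2.05, and 1955 (27.3%) and 5690 (79.4%) at Hspe1, a ratio of 2.91. H3K4me3 covered 18.6% of the Hspe1 body in the control and 100% in the mutant, and 14.0% and 31.5% of the Hspd1 body. The 4 heat shock units of the printed Hspe1 promoter, TTCTAGAACCTTCCGGAA, lay inside the H3K4me3 peak of both lists and in no H3K27ac peak of either list, the nearest control H3K27ac peak being 303 bp from the start site of Hspe1.

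**Figure D4:**
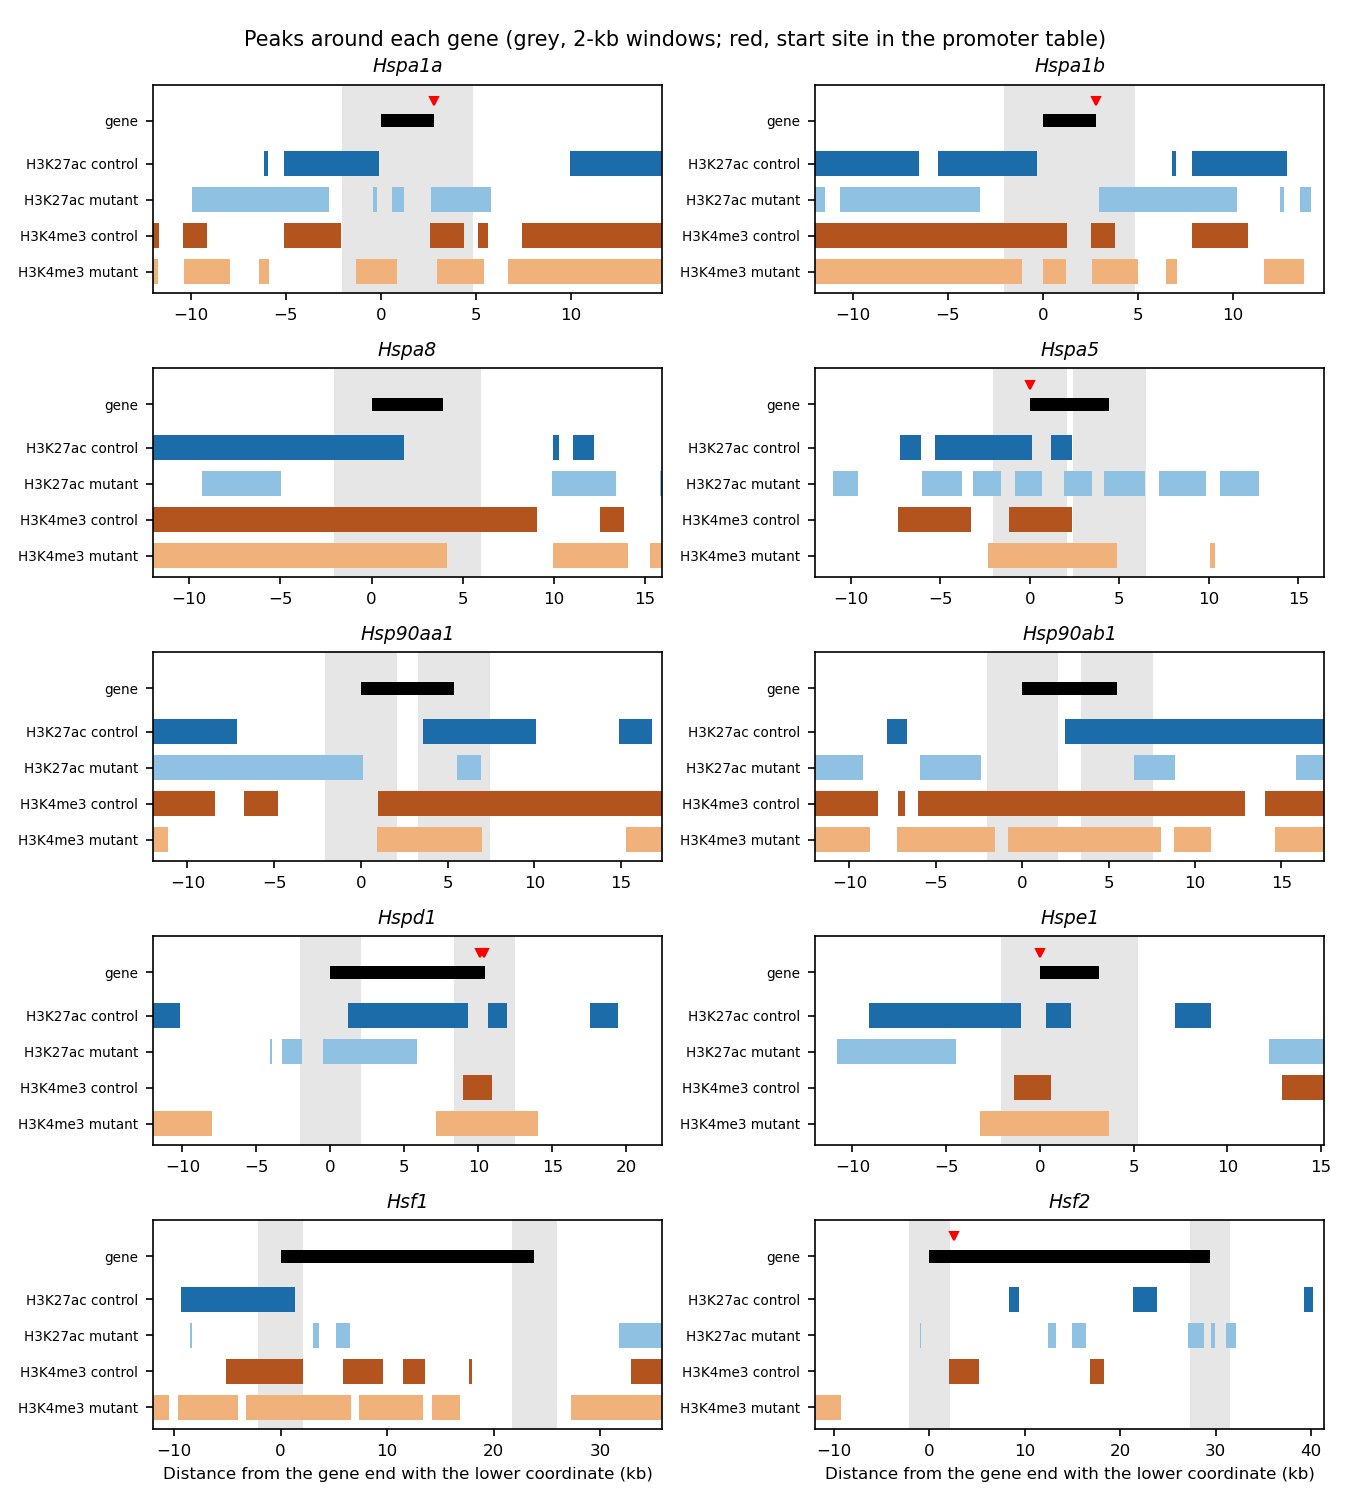
Peaks of the 4 lists (coloured bars, 1 row a list) around each of the 10 genes (black bars), as distance in kb from the gene end with the lower coordinate; grey bands are the 2-kb windows and red triangles the start sites of the promoter table, and peaks are cut at the panel edges. Control H3K27ac peaks of 31067 bp at Hspa8 and 16930 bp at Hsp90ab1 have no counterpart of that width in the mutant list, and the H3K4me3 peak at Hspd1 and Hspe1 is 1955 bp wide in the control and 6877 bp in the mutant.

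At the 7 start sites of the promoter table, an H3K27ac peak covered 1 in the control (Hspa5) and 2 in the mutant (Hspa5 and Hspa1a). Over all 21263 start sites the shares were 35.2% and 28.0%. An H3K4me3 peak covered 7 of 7 in the control and 5 of 7 in the mutant, against 66.1% and 62.5% of all. The 2 that were not covered in the mutant were those of Hspa1a and Hsf2.

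Bases under both marks of the same condition were counted in the same windows. In the control 8 of the 10 genes had such bases, and in the mutant 5, where 45.8% and 43.5% of all genes had them. Summed over the genes, 19990 bases in the control and 10271 in the mutant were under both marks. This was 52.1% of the H3K4me3 bases in the control and 22.1% in the mutant, against 52.5% and 39.6% over all genes. The bases under both marks were 3754 in the control and 0 in the mutant at Hspa8, 3322 and 0 at Hsf1, and 656 and 0 at both Hspd1 and Hspe1. They were 4001 and 993 at Hsp90ab1 and 3775 and 1423 at Hsp90aa1. More bases were under both marks in the mutant at Hspa5 (2134 and 3739), Hspa1a (0 and 2281) and Hspa1b (1692 and 1835). Around the start sites alone, which are given for 6 genes, the share of H3K4me3 bases under both marks was 26.2% in the control and 34.0% in the mutant. Both the genes and the window differ there.

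The number and width of peaks differed as well, and both depend on the limits of width and joining, which differed between the lists. More than 1 H3K27ac peak lay at 3 of the 10 genes in the control and at 5 in the mutant, and over all 21887 genes at 4900 and 5657. More than 1 H3K4me3 peak lay at 1 and 3 of the 10 genes, and over all genes at 6719 and 5955, which is fewer in the mutant. Of the 6 genes with H3K27ac in both lists, the widest peak was narrower in the mutant at 4, and over all genes in 67.2%. For H3K4me3 it was narrower at 4 of 9 genes, and over all genes in 37.4%. The median width of the widest H3K27ac peak at a marked gene was 8114 bp in the control and 3149 bp in the mutant over these genes, against 7609 and 4179 bp over all genes. For H3K4me3 these medians were 7220 and 7171 bp, against 5281 and 7033 bp. Around the start sites alone, which fewer genes have, the H3K4me3 medians were 2560 and 6877 bp. With common limits the H3K27ac medians of the 10 genes were 8114 and 4505 bp, and with peaks less than 1 kb apart merged they were 8114 and 6388 bp. The counts of genes with more than 1 peak were the same with common limits, but not under other settings. For H3K27ac they were 3 and 3 in the wider 50% of each list and 3 and 2 at start sites, and for H3K4me3 they were 1 and 2 with merged peaks and 4 and 4 with windows of 5 kb.

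The sequence from 2 to 20 kb outside the genes was compared with the windows. As a mean over the 10 genes, H3K27ac covered 34.7% of the windows and 36.5% of the flanks in the control, and 25.6% and 35.3% in the mutant. H3K4me3 covered 49.7% of the windows and 45.9% of the flanks in the control, and 60.7% and 46.6% in the mutant. Single genes differed more in their flanks than these means, in both directions. H3K4me3 covered 83.7% of the flanks of Hsp90aa1 in the control and 38.5% in the mutant, and 43.6% and 73.1% of those of Hsf1. Of the bases summed over all genes, H3K27ac covered 26.2% in the windows and 24.1% in the flanks in the control, and 22.6% and 21.0% in the mutant. For H3K4me3 these shares were 37.9% and 25.7% in the control, and 39.0% and 26.7% in the mutant.

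The rest of the chaperone system was described with 92 genes in 8 groups, namely other Hsp70 and Hsp110 genes, other Hsp90 genes, cochaperones, J-domain proteins, the cytosolic chaperonin CCT with prefoldin, small heat shock proteins, folding factors of the endoplasmic reticulum, and other stress transcription factors. H3K4me3 marked 91 of them in the control and 86 in the mutant (98.9% and 93.5%), and H3K27ac marked 69 and 67 (75% and 72.8%). Over all genes these shares were 74.7% and 72.9% for H3K4me3 and 54.8% and 58.0% for H3K27ac. H3K27ac was present only in the control list at 12 of 92 (13.0%) and only in the mutant list at 10 (10.9%), against 12.5% and 15.6% of all genes. It was at least 2-fold lower in the mutant at 30 of the 79 genes with the mark (38%) and at least 2-fold higher at 14 (17.7%), where the shares over all genes were 32.2% and 31.2%. For H3K4me3, 8 of 92 were at least 2-fold lower (8.7%) and 4 at least 2-fold higher (4.35%), against 13.3% and 13.2% of all genes. H3K4me3 was present only in the control list at 6 (6.52%) and only in the mutant list at 1 (1.09%), against 6.68% and 4.85%. At least 2-fold higher H3K4me3 was thus seen at 4 of 9 of the named genes and at 4 of 92 of the other chaperone genes. Of the 4 named genes, Hspd1 and Hspe1 share 1 peak. With windows of 5 kb these counts were 2 and 10, with windows of 1 kb they were 2 and 5, and with a fold of 1.5 they were 4 and 16. These are counts without a test.

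**Figure D5:**
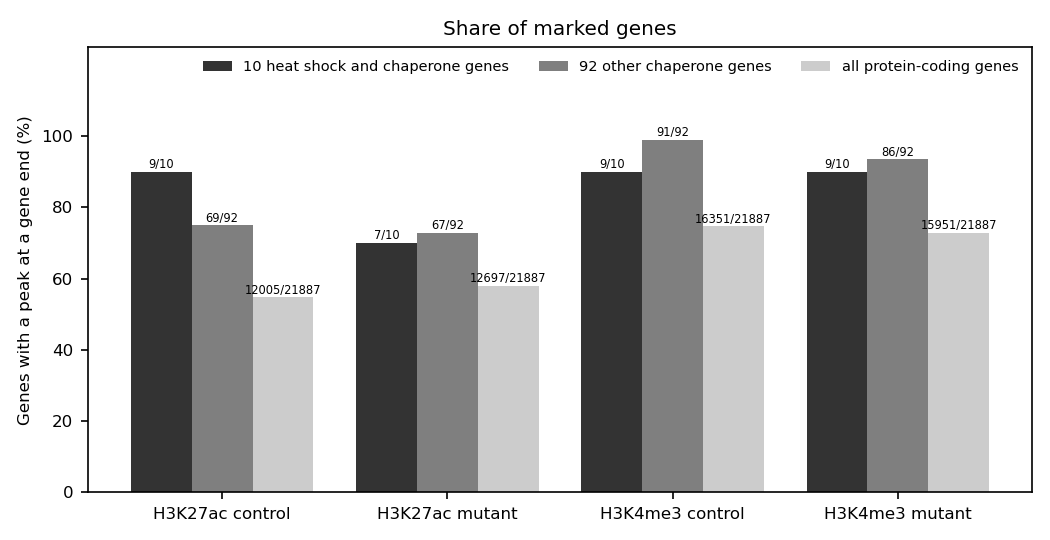
Percent of genes with a peak at a gene end (vertical axis, from 0) in each of the 4 lists, for the 10 heat shock and chaperone genes in black, the 92 other chaperone genes in dark grey and all 21887 protein-coding genes in light grey; the labels on the bars give marked genes of all genes. H3K27ac marked 9 and 7 of the 10 genes in the control and mutant list, and H3K4me3 marked 9 in both.

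The counts by group that follow have the same background for H3K27ac, 32.2% of all genes at least 2-fold lower and 31.2% higher, and several lie near it. Among J-domain proteins, which stimulate the ATPase of Hsp70, H3K27ac was at least 2-fold lower in the mutant at 7 of 18 and higher at 6. Dnaja3, a mitochondrial member, had 6569 H3K27ac bases in the control and 0 in the mutant, Dnajc5 had 6408 and 0, and Dnajc3 had 3237 and 0. Dnajc9 had 0 H3K27ac bases in the control and 6288 in the mutant, Dnajb11 had 0 and 2402, Dnaja4 had 0 and 987, and Dnajc10 had 518 and 6485. Dnajb9, a J-domain partner of Hspa5, had 6376 H3K4me3 bases in the control and 0 in the mutant. The group held both directions for H3K27ac.

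Among the cochaperones H3K27ac was at least 2-fold lower at 7 of 20 and higher at 2. Ptges3, the Hsp90 cochaperone p23, had 5726 H3K27ac bases in the control and 0 in the mutant, while its H3K4me3 covered 4001 bases in the control and 8002 in the mutant. Tomm34 had 4001 H3K27ac bases in the control and 0 in the mutant, and Grpel2, a mitochondrial nucleotide exchange factor, had 0 and 403. Fkbp4, an Hsp90 cochaperone of steroid receptors, had 6741 H3K4me3 bases in the control and 0 in the mutant.

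For CCT and prefoldin, which fold and deliver actin and tubulin, H3K27ac was at least 2-fold lower at 4 of 13 and higher at 1. The prefoldin subunit Pfdn5 had 8002 H3K27ac bases in the control and 742 in the mutant. H3K4me3 was present only in the control list at the prefoldin genes Vbp1 (6303 bases) and Pfdn6 (5435 bases). Folding factors of the endoplasmic reticulum had at least 2-fold lower H3K27ac at 5 of 10 and higher at 1. Creld2 had 3016 H3K27ac bases in the control and 0 in the mutant, Manf had 3000 and 0, and Herpud1 had 0 and 3286. No gene of this group had H3K4me3 past the 2-fold difference, where 13.3% of all genes with the mark were lower and 13.2% higher. H3K4me3 of the disulfide isomerase Pdia4 covered 4793 bases in the control and 7911 in the mutant.

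Other Hsp70 and Hsp110 genes had H3K27ac at least 2-fold lower at 4 of 9 and higher at 2. Hspa2, a testis Hsp70 gene, had 6096 H3K27ac bases in the control and 0 in the mutant, and Hspa4l, an Hsp110 gene, had 0 and 3658. Small heat shock proteins, which hold unfolded proteins without ATP, had H3K27ac at 3 of 8 genes in the control and 2 in the mutant, where 54.8% and 58.0% of all genes had it. Their Hspb2 had 2891 H3K4me3 bases in the control and 0 in the mutant, and Hspb3 had 0 and 3099. The other stress factors had H3K27ac at least 2-fold lower at 2 of 5 and higher at 2. The lower ones, named after their values were seen, were Ddit3 with 2645 H3K27ac bases in the control and 0 in the mutant, and Atf4 with 6362 and 1209. Among the others Hsf4 had 0 H3K27ac bases in the control and 2742 in the mutant, and Hsf5 had 0 and 1664 together with 1295 H3K4me3 bases in the control and 0 in the mutant.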

How the data were processed

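Chromatin immunoprecipitation libraries of 4 antibody groups (2 libraries each) were used through the 4 peak lists that the authors deposited. Per the file contents these hold peak positions only (chromosome, start, end) and no score or signal. Both libraries of a group share 1 list, and whether reads were pooled before calling is not given in the sources used here. Tools named per the submitters' processing notes, without role or version, were CASAVA, Trimmomatic, Bowtie2, SAMtools, Picard, MACS2 and deepTools, with the builds mm10 and GRCm38. The lists were made with different limits on width and joining, so an alternative with common limits was run.

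Peaks on other scaffolds (95, 20, 59 and 24 for H3K27ac control, H3K27ac mutant, H3K4me3 control and H3K4me3 mutant) were left out. Covered bases are bases of the 2-kb windows around both gene ends that lie under a peak. Gene positions and promoters came from RefSeq tables of GRCm38.p6. The gene table gives no strand, so start sites came from the promoter table. The 10 genes, the 92 other chaperone genes and the markers were chosen with earlier results of these data known. Of the 92, genes were named that had a mark in 1 list only (at most 8 for each mark and direction) or the 3 largest differences each way. Intervals were computed in python 3.11.15 with numpy 2.4.6 and pandas 2.3.3, plots with matplotlib 3.10.9, and the interval code was tested on simulated data. Alternatives varied the window, the fold, the minimum overlap and the treatment of peaks. The sequencing depth is unknown, and no interval or p-value could be given.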

Additional observations from a re-analysis of the deposited data

How the results depend on the processing

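No paired analysis was possible because only 1 peak list represents a group, and for the same reason no replicate could be left out. The start-site window covers the 6 genes with a promoter entry, and therefore fewer genes, so that it changes the set of genes as well. With it, H3K27ac marked 3 genes in the control (9 with both gene ends) and 3 in the mutant (7), H3K4me3 marked 5 in the mutant (9), 2 genes gained H3K27ac (1), 2 had it lower (4) and 2 higher (1). Also with it, 1 gene lost H3K4me3 (0), 1 had it lower (0) and 2 higher (4), and the H3K27ac ratio of mutant to control was 1.15 against 0.799. Under both marks were then 3 genes in the control (8) and 3 in the mutant (5). The share of H3K4me3 bases under both marks was 26.2% and 34.0% (52.1% and 22.1%). The order of the conditions turned, with both the genes and the window changed. Of the 92 other genes, 6 gained H3K27ac (10) and 9 had it higher (14). Over all 21263 start sites, counted as sites and not genes, 45.9% had H3K27ac within 2 kb in the control and 45.1% in the mutant. It was there only in the control at 16.1% and only in the mutant at 15.2%. For H3K4me3 these shares were 71.7%, 68.1%, 8.33% and 4.8%.

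With windows of 5 kb, 0 of the 10 genes lost H3K27ac (3), 1 lost H3K4me3 (0), 1 had it lower (0) and 2 higher (4), and the H3K4me3 ratio was 0.976 against 1.17. The gene that lost H3K4me3 was Hsf2 in both settings. Of the 92, 5 lost H3K27ac (12), 2 lost H3K4me3 (6) and 10 had it higher (4). With windows of 1 kb, 2 of the 10 genes had H3K27ac higher (1) and 2 had H3K4me3 higher (4). H3K27ac was higher at 2 genes also with peaks less than 1 kb apart merged and with common limits, and at 3 with a fold of 1.5. That fold gave 16 of the 92 with H3K4me3 lower (8) and 16 higher (4), and the wider 50% of each list gave 3 that gained it (1). The other 202 alternative values of these counts and ratios were within 1.5 times the reported value. Of 132 alternative values of single-gene differences, 84 stayed within 1.5 times and 48 did not. The sign changed in 6, none of them a difference past 2-fold. These were Hspa5 H3K27ac (2316 to -975) and Hspa1b H3K4me3 (-263 to 894) at start sites, Hspd1 H3K27ac (-421 to 729) and Hsp90aa1 H3K4me3 (-312 to 50) with 1 kb, and Hsp90aa1 H3K27ac (-239 to 17) and Hspa1b H3K4me3 (-263 to 486) with 5 kb. Of the values of peak number and width, 47 stayed within 1.5 times and 9 did not. Peak lists without read counts limit every comparison to whether and how far a region was called.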
